A study of Mus musculus with 12 samples.

Results

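The respiratory chain genes were followed through 12 bulk RNA-seq libraries of subcutaneous B16 melanomas. They were chosen by symbol alone. The mitochondrial set holds 13 genes, whose symbols start with mt-Nd, mt-Co, mt-Cytb or mt-Atp. The nuclear set holds 85 genes, whose symbols start with Ndufa, Ndufb, Ndufc, Ndufs or Ndufv and a digit, or with Uqcr, Cox4 to Cox8 or Atp5. Together they are 98 of the 32416 symbols in the table, after 8 pseudogenes were left out by name. No measured value entered this choice. B16 is an established melanoma line of the mouse. It was grown subcutaneously in C57BL/6 animals, all of which received at least 1 checkpoint antibody. B16mhgp100-Aoah (4 libraries) and B16mhgp100-Vector (4 libraries) came from mice given anti-PD1 from day 10. B16F10-Aoah (2 libraries) and B16F10-Vector (2 libraries) came from mice given anti-PD1 and anti-CTLA4 from day 6. Aoah tumours over-expressed Aoah, the gene of acyloxyacyl hydrolase, a lipase that removes acyl chains from lipopolysaccharide, and Vector tumours did not. The 200 µg doses came 2 times per week, 4 in all, and harvest followed 1 day later. There was no untreated arm. Model, antibodies and first day of dosing change together, so a difference between B16F10 and B16mhgp100 is one between 2 experiments, whose parts cannot be told apart. The labels do not say whether tumours of a group came from separate mice or cultures, so a p-value here covers only the spread among the libraries, which may be technical.

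The respiratory chain moves electrons from NADH and succinate to oxygen, pumps protons across the inner mitochondrial membrane, and so drives ATP synthase. Its complexes I, III, IV and V (ATP synthase) are built from subunits of both genomes. Core, hydrophobic subunits are encoded in mitochondrial DNA and are transcribed as long polycistronic RNAs that are then cut apart, mostly at tRNAs. The other subunits are encoded in the nucleus, translated in the cytosol and imported. Complex II is encoded wholly in the nucleus and belongs to neither set. In the mitochondrial set 7 genes belong to complex I, 1 to complex III, 3 to complex IV and 2 to complex V. By symbol, 43 nuclear genes belong to complex I, 8 to complex III, 17 to complex IV and 17 to complex V. Ndufa4 is counted here with complex I by its name, although its protein is known as a subunit of complex IV.

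Expression is given in TPM, a unit scaled for transcript length and for the total of a library. A gain in one large group of genes therefore lowers all others, and reads per gene are unknown. The RNA was selected by its polyA tail, and most, but not all, mitochondrial mRNAs carry short tails. Tails were not measured here for any single gene, mt-Nd6 included. The TPM of each mitochondrial gene is thus only a level in polyA-selected RNA. At least 1 TPM was reached by 13775 to 14791 genes per library. The library labelled B16mhgp100-Aoah 4 stood apart from the rest, with a median correlation of 0.833 (against 0.922 to 0.961) with the others across genes. Aoah itself stood there at 3.91 TPM, within the 0.89 to 7.58 TPM of the 4 Vector libraries of its model, whereas the other 3 Aoah libraries held 13.96 to 22.46 TPM. Its label is thus not checked by that gene. Several results that rest on this library, but not all, are also given without it. Its 13 skeletal muscle markers summed to 8143 TPM (23.9 to 1116 in the other 11 libraries), its 10 keratinocyte markers to 7716 TPM (4.47 to 68.9) and its 5 red blood cell markers to 5155 TPM (388 to 1442). Its 10 melanocyte markers summed to 8116 TPM, below the 16483 to 31469 TPM of the others. Among them Pmel stood at 1774 TPM, below its 6952 to 15881 TPM elsewhere, and Mlana at 1663 TPM, inside its range of 1187 to 1897 TPM. Both genes, which define melanocytes, were thus present in every library. In B16F10, Aoah stood at 21.75 and 23.73 TPM in the Aoah libraries and at 1.49 and 0.75 TPM in the Vector libraries. In bulk tumour RNA, fewer cells of a type and less RNA per cell cannot be told apart.

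Both sets were highly expressed, and the mitochondrial share varied far more between libraries than the nuclear share. The 13 mitochondrial genes took up 2.64% to 10.2% of the TPM of a library, and the 85 nuclear genes 2.61% to 5.76%. In B16mhgp100-Aoah 1 to 4 the mitochondrial share was 4.26%, 3.24%, 5.10% and 2.64%. In B16mhgp100-Vector 1 to 4 it was 3.52%, 5.01%, 4.58% and 4.71%. In B16F10 it was 6.29% and 5.86% in Aoah 1 and 2, and 4.90% and 10.2% in Vector 1 and 2. The Aoah and Vector libraries overlapped in both models. B16F10-Vector 2 had the highest share of all and B16mhgp100-Aoah 4 the lowest.

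The nuclear share was much steadier. It was 2.83%, 2.62%, 2.98% and 5.76% in B16mhgp100-Aoah 1 to 4, and 2.61%, 2.81%, 3.04% and 2.99% in the 4 Vector libraries of that model. In B16F10 it was 2.89% and 2.77% in the Aoah libraries and 2.85% and 3.05% in the Vector libraries. Without B16mhgp100-Aoah 4 it stood at 2.86% ± 0.153 (SD, n = 11), while the mitochondrial share stood at 5.25% ± 1.88 (SD, n = 11). Without B16F10-Vector 2 as well, the nuclear share was 2.84% ± 0.147 and the mitochondrial share 4.75% ± 0.936 (SD, n = 10 each). B16mhgp100-Aoah 4 joined the lowest mitochondrial share to the highest nuclear share. Among the other 11 libraries the extremes went together: B16F10-Vector 2 had the highest value of both shares, and B16mhgp100-Aoah 2 and Vector 1 had the lowest values of both.

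**Figure D1:**
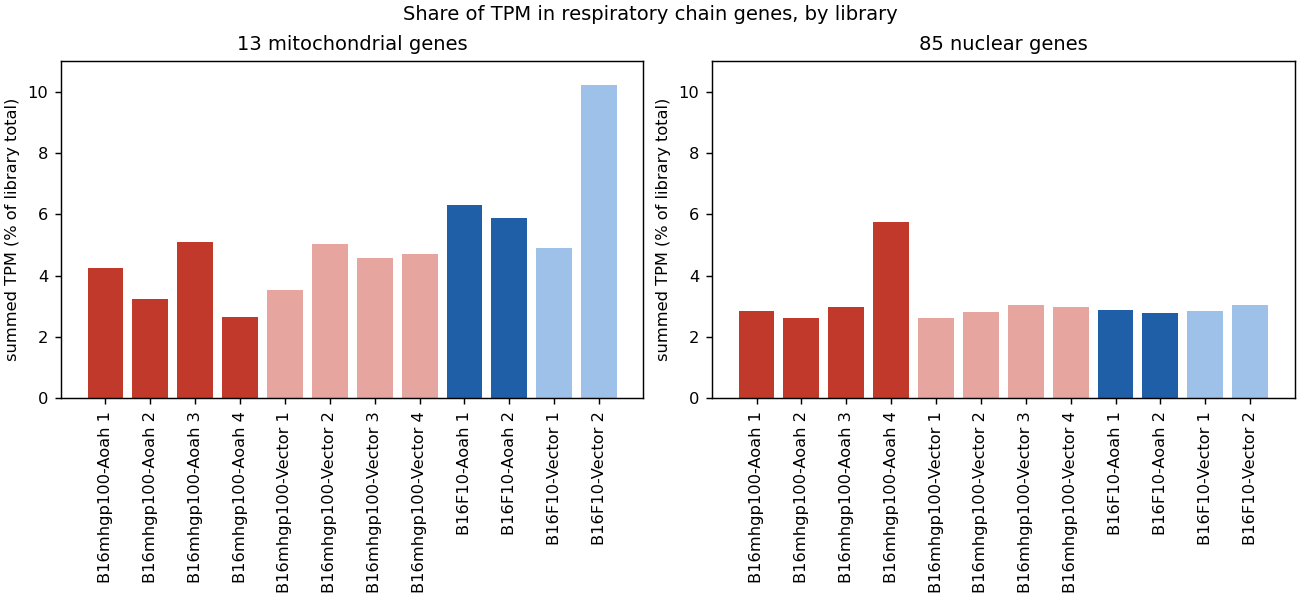
Bars give the summed TPM of the 13 mitochondrial genes (left) and of the 85 nuclear genes (right) as a percent of each library's total, for the 12 libraries coloured by group. The mitochondrial share ranges from 2.64% to 10.2%, and the nuclear share lies between 2.61% and 3.05% in every library but B16mhgp100-Aoah 4, where it is 5.76%.

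The ratio of the summed mitochondrial TPM to the summed nuclear TPM was higher in B16F10 than in B16mhgp100 in most, but not all, libraries. It was 1.504, 1.24, 1.71 and 0.458 in B16mhgp100-Aoah 1 to 4, and 1.35, 1.78, 1.504 and 1.58 in B16mhgp100-Vector 1 to 4. In B16F10 it was 2.18 and 2.12 in the Aoah libraries, and 1.72 and 3.35 in the Vector libraries. Only B16F10-Vector 1 lay within the range of B16mhgp100. The ratio was 1.39 ± 0.416 in B16mhgp100 (SD, n = 8), or 1.52 ± 0.191 without Aoah 4 (SD, n = 7), and 2.34 ± 0.703 in B16F10 (SD, n = 4). As a ratio of sums over members it is given with no test.

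By complex, the excess of mitochondrial RNA was largest for complex IV, the cytochrome c oxidase, in each of the 12 libraries. Its ratio of mitochondrial to nuclear TPM was 2.81 ± 0.768 in B16mhgp100 (SD, n = 8) and 4.85 ± 1.54 in B16F10 (SD, n = 4). For complex III, which passes electrons from ubiquinol to cytochrome c, it was 1.51 ± 0.517 and 2.73 ± 0.558, and the 4 B16F10 libraries (2.08 to 3.43) lay above all 8 B16mhgp100 libraries (0.308 to 2.01). Complex I, the NADH dehydrogenase, had 0.899 ± 0.284 and 1.47 ± 0.449. Complex V had 0.953 ± 0.350 and 1.23 ± 0.422, and here the B16F10-Aoah libraries (0.897 and 0.989) lay inside the range of B16mhgp100 (0.145 to 1.22). The lowest B16mhgp100 values for complexes III and V were those of B16mhgp100-Aoah 4. Without that library the B16mhgp100 ratios were 3.04 ± 0.446 for complex IV, 1.68 ± 0.191 for III, 0.985 ± 0.160 for I and 1.07 ± 0.135 for V (SD, n = 7 each). These ratios sum genes of very different length and level, so each is dominated by its most abundant members.

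Within the mitochondrial set, levels per length spanned a wide range although the genes lie on 1 short genome. The order of the means over 12 libraries was mt-Co1 (12750 TPM), mt-Atp8 (9870), mt-Co2 (8026), mt-Cytb (5545), mt-Nd1 (5181), mt-Co3 (2736), mt-Nd4 (1735), mt-Nd4l (1151), mt-Atp6 (925), mt-Nd2 (822), mt-Nd5 (771), mt-Nd6 (305) and mt-Nd3 (170). Neighbours in this order, such as mt-Cytb and mt-Nd1 or mt-Atp6, mt-Nd2 and mt-Nd5, overlapped across libraries. The SD over libraries was between 0.42 (mt-Nd6) and 1.24 (mt-Co1) on the log2(TPM + 1) scale, with a median of 0.73. The median was 0.37 for the 83 nuclear members that reached 1 TPM and 0.47 for the 16556 genes kept over all libraries. Without B16mhgp100-Aoah 4 and B16F10-Vector 2 it was 0.36 for the mitochondrial members, 0.18 for the nuclear members and 0.32 for all genes. By these medians the nuclear members varied less from tumour to tumour than the mitochondrial ones in either selection of libraries, as a description.

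Some mitochondrial genes share RNA, which bears on their TPM. In GENCODE M21, on the GRCm38 mitochondrial genome (chromosome M), mt-Atp8 (7766 to 7969, 204 nt) overlaps mt-Atp6 (7927 to 8607, 681 nt) by 43 nt, and mt-Nd4l (9877 to 10173, 297 nt) overlaps mt-Nd4 (10167 to 11544, 1378 nt) by 7 nt. Each pair is known to lie on a shared mature mRNA. The TPM of mt-Atp8 was nevertheless 17.4 to 26.2 times that of mt-Atp6 in 7 of the 8 B16mhgp100 libraries and 0.304 times in B16mhgp100-Aoah 4. In B16F10 the factor was 7.56 and 7.94 in the Aoah libraries, and 17.2 and 5.75 in Vector 1 and 2. For mt-Nd4l over mt-Nd4 it was 0.400 to 0.9895 in 11 libraries and 0.141 in B16mhgp100-Aoah 4. Genes of 1 mRNA cannot be weighed against each other by these TPM values, and how reads were shared between them is not given in the sources used here. mt-Nd6 is encoded on the other strand from the rest and overlaps mt-Nd5 by 14 nt, and no step that keeps the strand is stated for these libraries.

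The nuclear set was led by Atp5b, the catalytic beta subunit of ATP synthase, with a mean of 2159 TPM over the 12 libraries. Next came Cox4i1 (1303 TPM), a regulatory subunit of cytochrome c oxidase, Atp5g3 (1212 TPM), which encodes the membrane c subunit of ATP synthase, and Cox6a1 (1092 TPM). In the other complexes the leading members were Ndufa4 and Ndufc2 by name for complex I, at 713 and 476 TPM, and the small subunits Uqcr10 and Uqcr11 for complex III, at 649 and 562 TPM. Of the 85 nuclear genes, 74 had a mean of at least 50 TPM. The other 11 were Ndufa11b and Ndufb11b, which stayed under 1 TPM in every library, and Cox4i2, Cox6a2, Cox6b2, Cox6c2, Cox7a1, Cox8b, Ndufa4l2, Ndufb4b and Ndufs6b. Most of these are isoforms used in particular tissues, or copies of a family member, whose values are uncertain where RSEM shares reads between near-identical genes.

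The promoters of the nuclear members were read for CpG content, which the choice by symbol did not use. Of the 85 nuclear genes, 66 had an entry in the RefSeq promoter table (GRCm38.p6), read here over the 250 bases before the start. Where a gene had several entries, its CpG count is that of the entry richest in CpG. CpG was looked at after the members' levels were known. The sequences below are shown because Atp5b, Ndufv3 and Ndufa10 are the nuclear members called between the models, and Cox8a and Cox8b are a ubiquitous and a muscle isoform of 1 subunit that behaved differently in the tumours. Each is written 5′ to 3′ in the direction of the gene, and capitals mark CpG pairs.
Atp5b, chr10:128083057-128083306, plus strand: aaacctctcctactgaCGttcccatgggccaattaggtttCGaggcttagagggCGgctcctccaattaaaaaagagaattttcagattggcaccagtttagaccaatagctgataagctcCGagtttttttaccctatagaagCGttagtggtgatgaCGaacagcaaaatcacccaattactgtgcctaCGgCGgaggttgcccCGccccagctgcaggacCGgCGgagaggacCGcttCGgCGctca
Ndufv3, chr17:31519865-31520114, plus strand: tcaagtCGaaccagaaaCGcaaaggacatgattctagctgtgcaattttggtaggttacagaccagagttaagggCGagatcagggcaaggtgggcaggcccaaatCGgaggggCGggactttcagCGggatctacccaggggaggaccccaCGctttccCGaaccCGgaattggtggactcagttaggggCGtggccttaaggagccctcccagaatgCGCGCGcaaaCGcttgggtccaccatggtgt
Ndufa10, chr1:92473759-92474008, minus strand: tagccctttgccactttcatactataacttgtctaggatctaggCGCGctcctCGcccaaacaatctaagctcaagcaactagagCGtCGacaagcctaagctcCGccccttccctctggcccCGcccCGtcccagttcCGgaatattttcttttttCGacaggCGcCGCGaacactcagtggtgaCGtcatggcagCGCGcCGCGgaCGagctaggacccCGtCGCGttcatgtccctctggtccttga
Cox8a, chr19:7217617-7217866, minus strand: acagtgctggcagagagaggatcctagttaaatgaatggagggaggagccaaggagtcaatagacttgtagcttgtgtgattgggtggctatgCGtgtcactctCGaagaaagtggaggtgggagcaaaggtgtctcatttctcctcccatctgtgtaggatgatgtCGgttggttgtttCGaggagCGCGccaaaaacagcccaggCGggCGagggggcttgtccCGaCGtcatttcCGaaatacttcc
Cox8b, chr7:140900447-140900696, minus strand: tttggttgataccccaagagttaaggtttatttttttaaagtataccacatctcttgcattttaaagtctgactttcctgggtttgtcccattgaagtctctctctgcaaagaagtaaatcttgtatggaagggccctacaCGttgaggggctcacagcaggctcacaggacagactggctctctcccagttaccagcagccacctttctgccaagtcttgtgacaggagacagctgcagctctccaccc

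These windows held 14, 14, 22, 11 and 1 CpG pairs in that order. Over the 62 members with a mean of at least 50 TPM that had an entry, the median was 14.5 CpG pairs (range 4 to 35). The 4 members under 50 TPM with an entry (Cox7a1, Cox8b, Cox6b2 and Ndufb4b) had 1 to 8, so the ranges overlapped, and the median over all 27025 genes of the table was 6. Of the muscle isoforms only Cox7a1 and Cox8b had an entry, and the difference was not tested. Then 3 short motifs were searched on both strands in every entry of a gene. A gene was counted where any of its entries held the motif, not only the entry richest in CpG. GCGCANGCG, the core of the sites of nuclear respiratory factor 1 (NRF1), was present in 18.2% of the 66 nuclear members and in 5.86% of all genes. CCGGAAG, the core of ETS family sites, which GABP also uses, was present in 16.7% and 7.83%, and AAGATGGCG, a YY1 core, in 1.52% and 0.71%. All 3 motifs hold a CpG pair, and the 66 members were richer in CpG, with a median of 14 against 6 over all genes. No background of like CpG content was used, so these shares do not show that a motif is particular to the members. Among the members with the NRF1 letters were Cox6a1, Ndufa8, Ndufs5 and Atp5g2. None of the 5 promoters printed here held any of the 3 motifs, which says only that these letters are absent from these windows.

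The comparison of the models asks how the 2 experiments differ, over both constructs. All 13 mitochondrial genes were higher in B16F10 than in B16mhgp100 on average, with a median log2 difference of 0.84, a mean of 0.77 and a range of 0.19 to 1.69, against a median of -0.03 over the 16556 genes tested. Of them, mt-Co3 and mt-Nd1 rose past the threshold (2 of 13). Of the 83 nuclear genes kept, 36 lay above 0 and 47 below, with a median of -0.06 and a mean of -0.06, and Atp5b, Ndufv3 and Ndufa10 fell past the threshold (3 of 83). The background was 3.66% of all genes called higher and 3.71% called lower, so the nuclear count lower lies near the background. The difference between the set means, mitochondrial minus nuclear, was 0.84 on the log2 scale. It is given with no test, since members of a set are not replicates.

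For mt-Co3, which encodes a core subunit of cytochrome c oxidase, the groups did not overlap. It stood at 1597, 1144, 2388 and 2878 TPM in B16mhgp100-Aoah 1 to 4, and at 836, 1025, 1180 and 1438 TPM in the 4 Vector libraries of that model. In B16F10 it stood at 3833 and 3745 TPM in the Aoah libraries and at 3449 and 9323 TPM in the Vector libraries. All 4 B16F10 values were above all 8 B16mhgp100 values. B16F10 exceeded B16mhgp100 by 1.69 log2 units (SE 0.30, limma adjusted p = 0.00743). It passed with 11 of the 12 libraries left out in turn, and without B16F10-Aoah 1 the adjusted p was 0.0519.

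mt-Nd1, a core subunit of complex I, was likewise higher in B16F10. It stood at 4052, 3114, 4048 and 2995 TPM in B16mhgp100-Aoah 1 to 4, and at 3094, 4918, 4982 and 4579 TPM in Vector 1 to 4. In B16F10 it stood at 7484 and 6888 TPM in the Aoah libraries and at 4676 and 11340 TPM in the Vector libraries. B16F10-Vector 1 lay within the range of B16mhgp100, and the other 3 lay above it. On the log2 scale this made 0.89 (SE 0.23, limma adjusted p = 0.0394), which ranged from 0.57 to 1.21 with 1 library left out, passing in 2 of 12 such fits.

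mt-Cytb, the sole mitochondrial gene of complex III, did not overlap between the models either. It stood between 1675 and 5621 TPM in the 8 B16mhgp100 libraries and at 7435, 6981, 5982 and 10535 TPM in those of B16F10. Its log2 difference was 0.84, and it did not pass over all genes. Groups that did not overlap were found for 4.57% of all genes with B16F10 higher and for 2.51% with B16F10 lower. Among the members these were mt-Co3 and mt-Cytb, 2 of 13, on the higher side, and Atp5b and Ndufa6, 2 of 83, on the lower side.

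The 2 remaining oxidase genes showed how much single libraries weigh. mt-Co1 encodes the catalytic subunit with the haem and copper centre. It stood at 12457, 8836, 13751 and 795 TPM in B16mhgp100-Aoah 1 to 4, between 9295 and 14148 TPM in the Vector libraries, and at 19216, 17556, 11293 and 22325 TPM in B16F10. mt-Co2, which holds the site where cytochrome c hands over its electron, stood at 4960, 3736, 7667 and 12607 TPM in B16mhgp100-Aoah 1 to 4, between 4321 and 6137 TPM in Vector, and at 10977, 9638, 5659 and 20456 TPM in B16F10. In B16mhgp100-Aoah 4 mt-Co1 was thus the lowest of all libraries and mt-Co2 the highest of its model.

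Of the 3 nuclear genes called, Atp5b alone did not overlap between the models. It stood at 2397, 1907, 2390 and 3314 TPM in B16mhgp100-Aoah 1 to 4 and at 2119, 2429, 2525 and 2373 TPM in Vector 1 to 4. In B16F10 it stood at 1730 and 1801 TPM in Aoah against 1684 and 1239 TPM in Vector, so every B16F10 value was below every B16mhgp100 value. On the log2 scale B16F10 differed by -0.59 (SE 0.15, limma adjusted p = 0.0420). Ndufv3, an accessory subunit of the NADH-binding module of complex I, had 494, 608, 482 and 780 TPM in B16mhgp100-Aoah and 430, 435, 405 and 468 TPM in Vector, against 270, 307, 423 and 362 TPM in B16F10. Its difference was -0.58 (SE 0.15, limma adjusted p = 0.0381). Ndufa10, another accessory subunit of complex I, had 93.7 to 153.6 TPM in B16mhgp100 and 80.0, 75.6, 102.2 and 80.2 TPM in B16F10. Its difference was -0.50 (SE 0.13, limma adjusted p = 0.0424), and the groups overlapped in 1 library of each model. With 1 library left out, Atp5b and Ndufv3 passed in 3 of 12 fits and Ndufa10 in 2 of 12.

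The calls depended on B16mhgp100-Aoah 4. Without it 35 members passed, 7 mitochondrial and 17 nuclear higher and 11 nuclear lower in B16F10, among 5303 of 16261 genes. The background in that fit was 11.8% of all genes called higher and 20.8% called lower. The mitochondrial mean was then 0.70, with 11 of 13 above 0 and mt-Atp8 and mt-Nd4l not among them. The greatest nuclear differences among these calls, 3 upward and 2 downward, were Ndufa13 (0.94, limma adjusted p = 0.000600), known also as GRIM-19, Cox7a1 (0.65) and Ndufa7 (0.60), and Ndufa10 (-0.54) and Atp5b (-0.52) on the lower side. These members were picked for the size of their difference after it was seen. Without B16F10-Vector 2 alone, the mitochondrial mean was 0.51 with 12 of 13 above 0, and mt-Co3 was the sole member called. Without both libraries 24 members passed, 3 mitochondrial and 12 nuclear higher and 9 nuclear lower, among 4268 of 17734 genes (10.4% called higher and 13.7% lower). The mitochondrial genes among them were mt-Co3 (1.43), mt-Atp6 (0.76) and mt-Cytb (0.46). Over the 13 mitochondrial genes the median difference without both libraries was 0.33, with 11 above 0, against 0.84 with all libraries. The median over all genes was then -0.06.

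**Figure D2:**
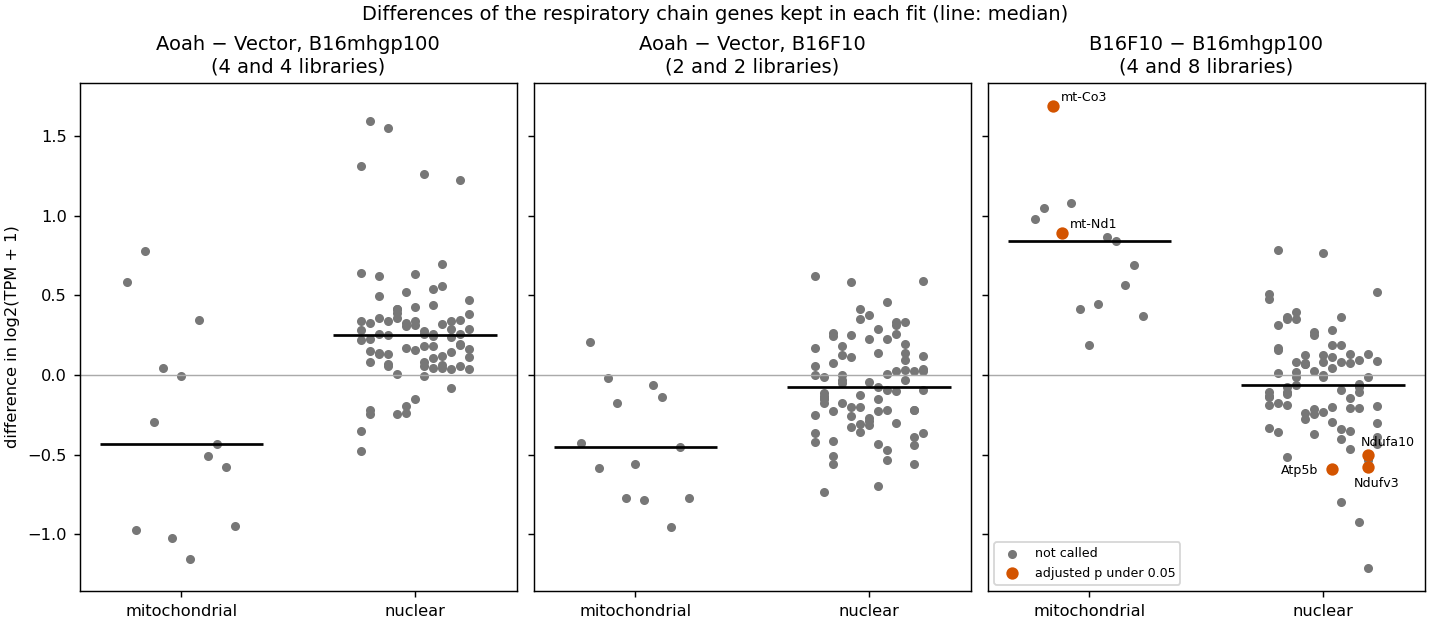
Each point is a respiratory chain gene kept in the fit, and its height is the difference of group means in log2(TPM + 1). The 3 panels show Aoah minus Vector in B16mhgp100, the same in B16F10, and B16F10 minus B16mhgp100. Black lines are medians of a set and orange points passed an adjusted p of 0.05. Orange points appear in the right panel alone, where all 13 mitochondrial genes lie above 0.

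Genes that build and regulate the chain were looked at beside the 2 sets. Between the models 3.66% of all genes were called higher and 3.71% lower. Groups did not overlap, with B16F10 higher, in 4.57% of all genes. A list of 6 genes held those of complex II, Cycs for cytochrome c, and Cyc1, a complex III subunit that the choice by symbol left out. Of these, 1 rose in B16F10 against B16mhgp100. This was Sdhc, a membrane anchor of complex II, at 182 to 265 TPM in B16F10 and 141 to 180 TPM in B16mhgp100 (log2 difference 0.51, limma adjusted p = 0.0294). Of the 27 assembly factors of complexes III, IV and V, 1 rose. This was Coa3, which stabilises newly made mt-Co1 protein during assembly of complex IV, at 309 to 388 TPM in B16F10 and 137 to 179 TPM in B16mhgp100, with no overlap (log2 difference 1.11, SE 0.12, limma adjusted p = 0.000311). Of 10 nuclear regulators of respiratory genes, 1 fell. It was Myc, a transcription factor that also drives mitochondrial biogenesis, at 31.0 to 59.5 TPM in B16F10 and 60.6 to 141.5 TPM in B16mhgp100 (-1.32, limma adjusted p = 0.0121). Ppargc1a, a coactivator of respiratory genes, had a difference of -1.37 and did not pass (limma adjusted p = 0.0944).

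None of the 20 genes of mitochondrial transcription, replication and RNA stability passed between the models, and 13 of them lay below 0, with a median of -0.14. The nearest to the threshold was Pnpt1, a mitochondrial RNA-degrading nuclease, with a difference of -0.96 (limma adjusted p = 0.0518). It stood at 13.7, 14.1, 24.1 and 12.1 TPM in B16F10, at 28.2 to 41.2 TPM in 7 libraries of B16mhgp100 and at 14.3 TPM in B16mhgp100-Aoah 4. None of the 14 complex I assembly factors, 17 genes of the tricarboxylic acid cycle, 13 of protein import or 8 of mitochondrial dynamics and the outer membrane passed. Of 78 mitochondrial ribosomal protein genes kept, 4 rose and 3 fell, and of 86 cytosolic ones none rose and 7 fell. The share over all genes was 3.66% higher and 3.71% lower, and the mitochondrial ribosomal counts lie near it. Between the models all 13 skeletal muscle, 7 fibroblast, 7 endothelial and 5 red blood cell markers were below 0 in B16F10, and 1 of these, the endothelial gene Cldn5, passed. Of the 9 T cell markers 7 lay above 0, and Cd2 (0.87, limma adjusted p = 0.0299) and Cd8b1 (0.77, limma adjusted p = 0.0302) rose. Their sum was above the 21.2 to 41.3 TPM of B16mhgp100 only in the B16F10-Aoah libraries, at 95.6 and 110.2 TPM. In the B16F10-Vector libraries it lay below that range, at 18.7 and 7.54 TPM. Of the 10 melanocyte markers 8 lay above 0, with a median of 0.50, and Trpm1 rose (1.19, limma adjusted p = 0.0337). Skeletal muscle markers summed to 31.0 to 8143 TPM in B16mhgp100 and 23.9 to 341.4 TPM in B16F10, and melanocyte markers to 8116 to 29980 and 19736 to 31469 TPM. The muscle and red blood cell sums of B16mhgp100 were highest in Aoah 4. Its other 7 libraries held 31.0 to 1116 TPM of muscle and 484 to 1069 TPM of red blood cell markers. Red blood cell markers summed to 388 to 1442 TPM in B16F10. Endothelial sums were 84.2 to 204.8 TPM in B16mhgp100 and 58.6 to 163.9 TPM in B16F10, and fibroblast sums 109 to 2159 and 163 to 449 TPM. All these ranges overlapped between the models. The part of these cell types in the mitochondrial difference was not tested.

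The second comparison asks what differs between Aoah and Vector tumours of B16mhgp100 under anti-PD1. No member passed, nor did any of the 14228 genes tested (0% called higher and 0% called lower). At an unadjusted p under 0.05 there were 350 genes, 158 higher and 192 lower, among them 3 mitochondrial and 1 nuclear member. Of the 13 mitochondrial genes 4 lay above 0, with a median log2 difference of -0.44, and of the 82 nuclear genes kept 72 lay above 0, with a median of 0.25. The median over all genes was -0.20. These set values rest on B16mhgp100-Aoah 4. Without it the nuclear median was -0.03 with 33 of 82 above 0, the mitochondrial median was -0.20 with 3 of 13 above 0, and the median over all genes was -0.02.

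Among the mitochondrial genes with the smallest p, mt-Co3 was higher and mt-Nd5 and mt-Nd2 were lower on average in Aoah tumours. mt-Co3 had a log2 difference of 0.78 (SE 0.31), from the values given above, and 0.57 without Aoah 4. mt-Nd5, a proton-pumping subunit of complex I, stood at 626, 509, 794 and 186 TPM in Aoah 1 to 4 and at 698, 973, 971 and 995 TPM in Vector 1 to 4. Its difference was -0.95 (SE 0.41), and -0.51 without Aoah 4. mt-Nd2, a further subunit of that membrane arm, stood at 672, 519, 679 and 471 TPM in Aoah against 624, 851, 864 and 814 TPM in Vector, a difference of -0.44 (SE 0.19). All 3 had a limma adjusted p of 0.694, and the groups overlapped in each.

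Among the nuclear genes, Ndufa4l2 had the smallest p. It encodes a paralogue of Ndufa4 that is induced by hypoxia and is known to lower complex I activity. Its TPM was 22.1, 36.0, 9.60 and 64.4 in Aoah 1 to 4, and 15.7, 7.50, 5.02 and 7.28 TPM in Vector 1 to 4. Aoah 3 lay within the range of the Vector libraries and the other 3 above it. Its log2 difference came to 1.60 (SE 0.55, limma adjusted p = 0.694), or 1.19 without Aoah 4. In B16F10 the gene stood at 10.7 and 8.91 TPM in Aoah against 5.96 and 7.81 TPM in Vector, a log2 difference of 0.46 (limma adjusted p = 0.429). The groups did not overlap there, as held for 28.0% of all genes with Aoah higher in that comparison of 2 with 2 libraries. Its partner Ndufa4 was far higher, at 456 to 1331 TPM.

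Aoah and Vector values did not overlap in 3 nuclear members of B16mhgp100 and in no mitochondrial member. Ndufa3 and Ndufv3 were higher in Aoah, where 0.731% of all genes did so, and Ndufa10 was lower, where 5.15% did. Ndufa3, an accessory subunit of complex I, stood at 357, 326, 340 and 946 TPM in Aoah against a range of 258 to 295 TPM in Vector. Its log2 difference without Aoah 4 was 0.27 (SE 0.07, limma adjusted p = 0.541). Ndufv3 had 0.42 (SE 0.19) and without Aoah 4 0.27. In the authors' deposited table for this model, 0.0146% of genes passed as higher and 0% as lower, and none of them was a member. Only 63 of 80 nuclear and 12 of 13 mitochondrial members had an adjusted p there, so the others could not pass. Of 80 nuclear members in the authors' deposited table, 74 had a fold change above 0, with a median of 0.67 on the log2 scale, and of 13 mitochondrial members 5 did, with a median of -0.22. The median over all genes with an adjusted p in the authors' deposited table was 0.054, whereas the member medians include members without one. That table gives 1 fold change per gene for the model, with no value without Aoah 4.

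The third comparison asks the same in B16F10 under both antibodies. Here 12 of 13 mitochondrial genes were lower on average in Aoah tumours, with a median log2 difference of -0.45 and a range of -0.95 to 0.21. Of the 83 nuclear genes kept 36 lay above 0 and 47 below, with a median of -0.08, and the median over all genes was 0.02. A fall on average was not particular to the mitochondrial genes. Of 86 cytosolic ribosomal protein genes kept, 77 lay below 0, with a median of -0.56. Of 78 mitochondrial ribosomal protein genes 46 did, with a median of -0.07. No member passed, where 0.289% of 14533 genes were called higher and 0.055% lower. At an unadjusted p under 0.05 there were 3 mitochondrial genes, all lower, 2 nuclear genes higher and 12 lower, beside 1584 higher and 1058 lower among all genes. The mitochondrial values rest on B16F10-Vector 2. Without it the mean was 0.10 with 7 of 13 above 0, and without Vector 1 it was -0.95 with 0 of 13 above 0. In each of these fits a lone Vector library is assumed to vary like the Aoah libraries.

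mt-Nd2 had the largest difference, -0.95 (SE 0.34, limma adjusted p = 0.230). It stood at 719 and 710 TPM in Aoah against 970 and 1974 TPM in Vector, with no overlap. mt-Nd5 stood at 678 and 606 TPM in Aoah against 947 and 1263 TPM in Vector (-0.77, limma adjusted p = 0.143). mt-Atp8, a small subunit of ATP synthase, stood at 7535 and 8048 TPM in Aoah against 11580 and 15545 TPM in Vector (-0.78, limma adjusted p = 0.143). These 3 genes were lower in both Aoah libraries than in either Vector library, as held for 6 of 13 mitochondrial genes and 22.6% of all genes. That alone keeps their differences below 0 with either Vector library left out, so those fits add no check of the sign. mt-Co1 was the sole gene above 0, at 0.21, and it was -0.28 without Vector 1 and 0.70 without Vector 2.

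Of the nuclear genes, Ndufa4 had the smallest p. It stood at 456 and 525 TPM in Aoah against 845 and 787 TPM in Vector, a log2 difference of -0.74 (SE 0.15, limma adjusted p = 0.112). Atp5mpl, a small membrane protein of ATP synthase, stood at 433 and 492 TPM in Aoah against 760 and 738 TPM in Vector (-0.70, limma adjusted p = 0.113). Ndufa5 had -0.51. On the other side Uqcrc1, a core subunit of complex III, stood at 354 and 310 TPM in Aoah against 202 and 228 TPM in Vector (0.62, limma adjusted p = 0.145), and Ndufa9 and Ndufc2 had 0.58 and 0.35. With 2 libraries against 2, Aoah and Vector did not overlap in 28.0% of all genes with Aoah higher and in 22.6% with Aoah lower. Among the members this held for 0 and 6 of 13 mitochondrial genes and for 16 and 30 of 83 nuclear genes, in that order.

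In the authors' deposited table for B16F10, 4.65% of 14328 genes passed as higher and 3.88% as lower at an adjusted p of 0.05. There, 3 of 13 mitochondrial and 2 of 80 nuclear members passed, all lower in Aoah tumours, where 73 of these 80 had an adjusted p. In the authors' deposited table these were mt-Nd2 at a log2 fold change of -1.10 (adjusted p = 0.0276), mt-Atp8 at -0.84 (0.0258), mt-Nd5 at -0.82 (0.0305), Ndufa4 at -0.75 (0.00726) and Atp5mpl at -0.72 (0.0279). The nuclear count lower lies near the background of that table, and the mitochondrial count is 3 of 13. The limma fit here calls none of the 5. The 9 T cell markers summed to 95.6 and 110.2 TPM in the Aoah and 18.7 and 7.54 TPM in the Vector libraries of B16F10, and the 7 endothelial markers to 60.1 and 58.6 against 99.1 and 163.9 TPM. The 13 skeletal muscle markers summed to 37.9 and 42.4 against 23.9 and 341.4 TPM. Their part in these differences was not tested.

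In B16F10 the assembly factors Ndufaf2 and Cox20 came near the threshold. Ndufaf2, needed for a late step of complex I assembly, stood at 20.5 and 23.2 TPM in Aoah against 55.3 and 75.6 TPM in Vector (-1.53, limma adjusted p = 0.0696). Cox20, a chaperone of the mt-Co2 protein, stood at 16.2 and 20.0 TPM in Aoah against 43.1 and 38.0 TPM in Vector (-1.13, limma adjusted p = 0.104). No gene of the 8 lists of mitochondrial biology, nor of the mitochondrial ribosomal proteins, passed in B16F10 or in B16mhgp100.

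The Aoah effect was also compared between the models in 1 fit of all 12 libraries. No member passed, where 0.0242% of 16556 genes were called higher and 0.00604% lower. The smallest p among nuclear members belonged to Ndufv3, whose effect was 0.86 lower on the log2 scale in B16F10 (difference -0.86, SE 0.29, limma adjusted p = 0.754), and to Uqcrc1, with 0.78 (SE 0.27, limma adjusted p = 0.767). Among mitochondrial members it was mt-Co3, with -1.36 (SE 0.60, limma adjusted p = 0.849). At an unadjusted p under 0.05 there were 1 mitochondrial and 3 nuclear members, beside 564 higher and 372 lower among all genes.

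The 2 libraries that stood apart did so in different ways along the mitochondrial genome. In B16F10-Vector 2 every one of the 13 genes was above the median of the other 3 B16F10 libraries, by 1.27 times (mt-Co1) to 2.75 times (mt-Nd2), with a median of 1.91. It held the highest value of all 12 libraries for 11 of the 13. Its nuclear members had a median ratio of 1.12, with 54 of 82 above 1, and all genes a median of 0.859. In B16mhgp100-Aoah 4 the mitochondrial genes scattered, from 0.0613 times the median of the other 7 B16mhgp100 libraries for mt-Atp8, 0.0677 for mt-Co1 and 0.0733 for mt-Nd4l to 5.53 times for mt-Nd3. There 8 of the 13 had their lowest value of all libraries and 2 their highest. mt-Atp6 stood at 2295 TPM (397 to 556 in the other 7), and mt-Nd6 at 522 TPM (197 to 319). Neighbours on the genome went opposite ways, such as mt-Co1 and mt-Co2, or mt-Atp8 and mt-Atp6. The ratio of mt-Co1 to mt-Co2 was 0.0631 there and 1.09 to 2.51 in the other 11 libraries.

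**Figure D3:**
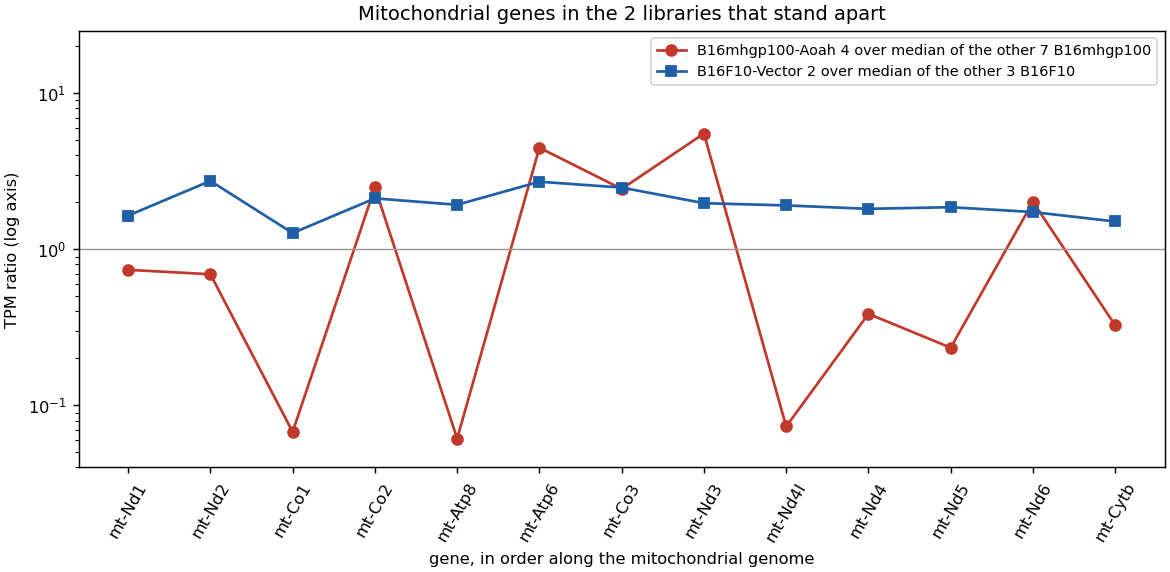
For each mitochondrial gene, in genome order, the points give the TPM of B16mhgp100-Aoah 4 over the median of the other 7 libraries of its model, and the TPM of B16F10-Vector 2 over the median of the other 3, on a log axis. The B16F10-Vector 2 line lies between 1.27 and 2.75 throughout, and the B16mhgp100-Aoah 4 line runs from 0.0613 (mt-Atp8) to 5.53 (mt-Nd3).

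The nuclear members of B16mhgp100-Aoah 4 were mostly high. Of 82 members, 73 were above the median of the other 7 libraries, with a median ratio of 2.05, whereas the median over all genes was 0.521. It held the highest value of all libraries for 69 of the 83 members that reached 1 TPM. High values were found for Cox6b1, at 1792 TPM against 511 to 717 in the other 7, and Ndufa5, at 940 against 192 to 248 TPM. Some long subunits were low, such as Uqcrc2, a core subunit of complex III, at 53.7 against 140 to 176 TPM, and Atp5a1, the alpha subunit of ATP synthase, at 415 against 608 to 876 TPM. Of the 49 nuclear members whose longest coding transcript in GENCODE M21 was under 1000 nt, all lay above 1, with a median ratio of 2.27. Of the 27 with 1000 nt or more 19 did, with a median of 1.47. Across these 76 members the ratio declined with length (Spearman rho -0.48), and in B16F10-Vector 2 it did so too (rho -0.52), as a description across genes of 1 library each. The cytosolic ribosomal protein genes, also short, took 24.0% of the TPM in B16mhgp100-Aoah 4 and 9.71% to 13.5% in the other 11. The part of transcript length in these values was not tested.

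Among the nuclear members, the oxidase isoforms of striated muscle exceeded their highest value in the other 11 libraries by the largest factors in B16mhgp100-Aoah 4. Cox8b stood there at 297 TPM and between 0.60 and 12.57 TPM in the other 11 libraries. Cox7a1 stood at 162 TPM against 6.31 to 22.41, and Cox6a2 at 109 TPM against 0 to 8.03. Their ubiquitous partners moved less. Cox8a was at 885 TPM, inside the range of 754 to 1184 TPM, Cox7a2 at 536 TPM against 273 to 407, and Cox6a1 at 2325 TPM against 705 to 1224. Cox8b made 0.336 times the TPM of Cox8a there and at most 0.0163 times elsewhere. The muscle genes Ckm and Acta1 stood at 969 and 694 TPM in this library and at no more than 115.7 and 165.0 TPM in the others. Among the other libraries Cox6a2 and Cox8b were highest in B16mhgp100-Vector 1, at 8.03 and 12.57 TPM, which also had the next highest sum of skeletal muscle markers, 1116 TPM. The 6 adipocyte markers also summed highest in B16mhgp100-Aoah 4, at 438 TPM against 21.6 to 157 TPM in the other 11 libraries. The part of muscle or adipocyte RNA in the nuclear members was not tested.

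**Figure D4:**
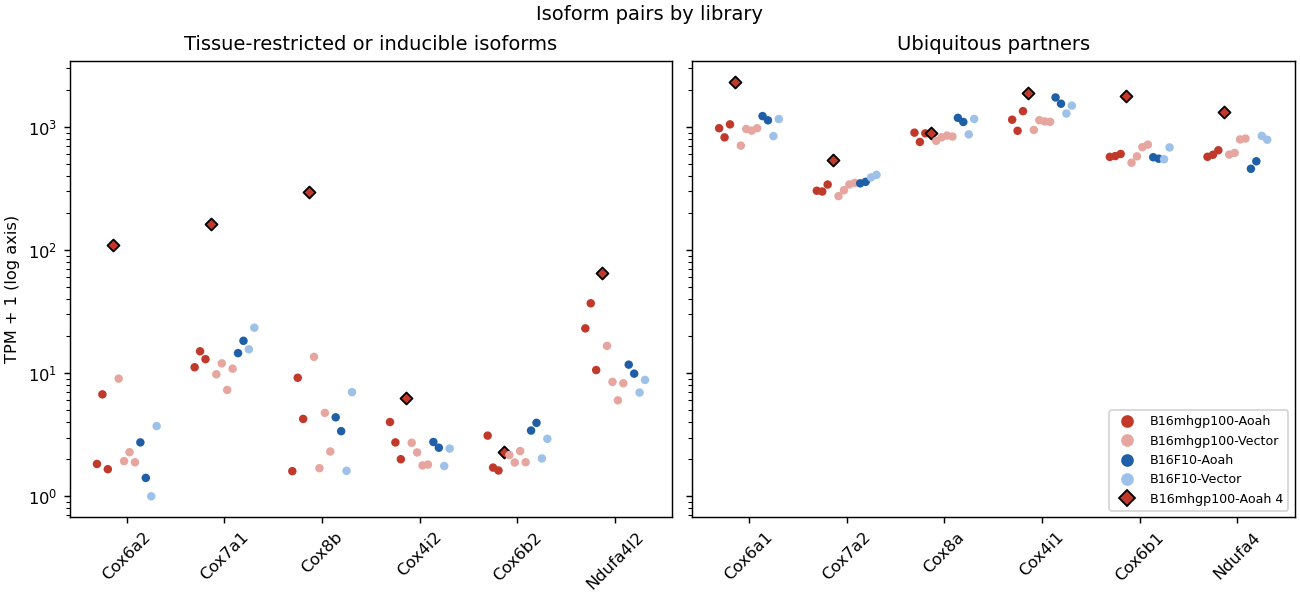
Points give TPM + 1 on a log axis in each of the 12 libraries for isoforms restricted to a tissue or induced by hypoxia (left) and for their ubiquitous partners (right), coloured by group, with B16mhgp100-Aoah 4 as a diamond. The diamond lies far above the rest for Cox6a2, Cox7a1 and Cox8b (109, 162 and 297 TPM) and inside the range of the others for Cox8a.

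The remaining isoforms were low throughout. Cox4i2, the oxygen-responsive partner of Cox4i1 known from lung, stood between 0.76 and 5.24 TPM, and Cox6b2, known from testis, between 0.62 and 2.95 TPM. Their partners Cox4i1 and Cox6b1 stood at 930 to 1880 and 511 to 1792 TPM. Cox7b stood between 153 and 549 TPM. Cox7a2l, a factor that joins complexes III and IV into supercomplexes, stood between 97.3 and 182 TPM. Cox7b, with 168 ± 21.0 TPM in B16F10-Aoah and 250 ± 55.7 TPM in B16F10-Vector (SD, n = 2 each), and Cox7a2l, with 123 ± 2.97 and 143 ± 4.09 TPM, did not pass in any comparison.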

How the data were processed

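Expression was measured in 12 polyA-selected libraries, grouped by their titles. The authors deposited log2 values, from which TPM was recovered by removing a pseudocount of 1. Per the submitters' processing notes, RSEM and DESeq2 were used with the genome build mm39, with versions and annotation not given in the sources used here. The authors also deposited, for each model, a DESeq2 table with mean normalized counts (signal), log2 fold changes, a test score and p-values, of which 93 of 98 members could be matched by gene identifier. Immune receptor repertoire tables were not used here.

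Here log2(TPM + 1) was tested with limma 3.58.1 in R 4.3.3, with an intensity trend, 2-sided, and Benjamini-Hochberg adjustment over all genes kept (at least 1 TPM in as many libraries as the smallest group holds), at a threshold of 0.05. This scale understates the change of low genes. The models were fitted separately for Aoah minus Vector and together for the other 2 comparisons. The fits were tested on simulated data with known changes. With noise drawn from each gene's own residual variance, the fit of B16F10 called none of them; noise from limma's moderated variance was added after that was seen, and with it that fit called many. With that added noise, 15 unchanged genes were also called in B16F10. Over both kinds of noise, the fit for the difference of the Aoah effects recovered 0% to 2% of changes of 1 log2 unit. Of changes of 2 units it recovered 19% to 32%. The fit of Aoah in B16mhgp100 recovered 21% to 32% and 71% to 78%, in that order. Counts of 0 in these fits are to be read with these limits. Summed TPM and set means are given with no test. Depth per library is unknown, so no counting interval is given. Same-numbered libraries did not deviate together (correlations of -0.29 to 0.02 in B16mhgp100 and -0.11 in B16F10), so the fits have no replicate block. Alternatives were another pseudocount, filter and scaling, no trend, array weights, a replicate block and each library left out. Transcript lengths came from GENCODE M21 and promoters from RefSeq, both on GRCm38, and were used for lengths and sequences alone. The mitochondrial set, the 2 highest nuclear genes of each complex, isoforms with their partners, the genes past the threshold (or the 3 smallest p in each direction) and the 3 smallest p of each other list are named, and any other gene was chosen after its values were seen. Cox7b2, Cox8c and Atp5if1 of that rule were not analysed here. Members and lists were chosen with earlier results of these data known.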

Additional observations from a re-analysis of the deposited data

Results flagged for a closer look

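In groups of 4 libraries, a value was singled out where its gap to the nearest other exceeded Dixon's 95% critical share of the range. Chance gives this in about 1 in 20 groups. Of 70 groups examined 14 held such a value, 10 of them in B16mhgp100-Aoah 4. There, mt-Atp6 (2295 TPM, next 556), mt-Nd3 (475, next 89.8), Ndufa4 (1331, next 646), Uqcr10 (1292, next 615), Cox6a1 (2325, next 1048), Cox6b1 (1792, next 602), Cox6a2 (109.5, next 5.73), Cox7a1 (162.4, next 14.1) and Cox8b (297.2, next 8.18) lay far above the other 3 Aoah libraries. So did the share of TPM in the nuclear set (5.76%, next 2.98%). The other 4 lay elsewhere. In B16mhgp100-Vector 1, mt-Nd5 (698 TPM, next 971) and Cox6a1 (704.7, next 932.7) were low and Cox6a2 (8.03, next 1.28) was high. In B16mhgp100-Aoah 2, Cox8a (754 TPM, next 885) was low.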

How the results depend on the processing

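Between the models, all 13 mitochondrial genes lay above 0 under every alternative except array weights (11), without B16mhgp100-Aoah 4 (11), without B16F10-Vector 2 (12) and without both (11). Members called there numbered 2 with no filter, 3 with median-of-ratios scaling, 3 with TPM rescaled without mitochondrially encoded genes, 1 without the trend, 29 with array weights and 24 without both libraries (an alternative chosen after seeing the data), and 0 to 35 with 1 library left out. All genes called there numbered 2211 with median-of-ratios scaling, 4655 with array weights and 4268 without both libraries, and 415 to 5303 with 1 left out. For Aoah in B16mhgp100, all genes called were 1 at a pseudocount of 0.1, 1 without the trend and 5 with array weights, and 0 to 2 with 1 library left out. Median-of-ratios scaling moved the median of all genes there from -0.20 to 0.01, the mitochondrial median from -0.44 to -0.19 (5 of 13 above 0) and the nuclear median from 0.25 to 0.50 (79 of 82), and turned Ndufs1 to 0.0065. Array weights turned the nuclear median there to -0.046, with 29 of 82 above 0, and gave a mitochondrial median of -0.23. For Aoah in B16F10 the number was 32 at a pseudocount of 0.1, 0 with no filter, 80 at 5 TPM, 127 with median-of-ratios scaling, 83 with TPM rescaled, 16 without the trend, 115 with array weights and 0 to 0 with 1 left out, and mt-Co1 ran from -0.28 to 0.70. For the difference of the effects it was 46 with no filter, 10 with median-of-ratios scaling, 11 without the trend, 31 with array weights, 441 without both libraries and 2 to 45 with 1 left out. There the mitochondrial mean ran from -0.63 to 0.42, mt-Cytb from -0.040 to 0.78 and mt-Nd1 from -0.36 to 0.91 with 1 left out. Without both, the nuclear mean was 0.010 and mt-Nd6 was 0.13. The causes were not tested.

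With the replicate block, 765 genes and 1 member (mt-Nd2) were called in B16F10, and 2 genes for the difference of the effects. The block changed no other count by over 1.5 times, and between the models it could not be fitted, since the numbers are nested in the models. Crossing the pairs in B16F10 gave 910 genes and 6 members. TPM keeps no depth, so its limit on low isoforms is unknown.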
